A study of Mus musculus with 30 samples.

Results

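The transcripts of 10 mitosis genes, Mki67, Top2a, Cdk1, Ccnb1, Ccnb2, Birc5, Cdc20, Tpx2, Cenpf and Ube2c, were followed across sorted mouse mammary epithelial cells. The genes were chosen by name, and all 10 were among the 11137 genes of the expression table. The study asked what Rank, the receptor for Rankl, does in the luminal lineage of the mammary gland. Luminal and basal cells were sorted from 17 mice by CD24 and CD49f, and 13 mice gave a library of each lineage. All mice carried K8rta:TETO CRE:mTmG, in which the Krt8 promoter drives a doxycycline-dependent Cre in luminal cells, and the K8iΔRank mice also carried RANK fl/fl. K8imTmG control mice therefore had the same Cre and reporter with intact Rank, and basal cells of both genotypes were meant to keep Rank. Every mouse drank doxycycline at 1 mg/ml from week 3 to week 8 of age, per the labels. The study's methods instead start it at week 4, for 4 weeks. Virgin mice were compared with parous mice, which had gone through pregnancy and involution, and K8iΔRank mothers lost their litters soon after birth. Per the study's methods, control mothers nursed before their pups were removed, whereas K8iΔRank mothers failed to lactate. Genotype and nursing history therefore cannot be told apart wherever parous mice of both genotypes are compared. For luminal cells there were 3 virgin K8imTmG, 3 virgin K8iΔRank, 5 parous K8imTmG and 4 parous K8iΔRank libraries. For basal cells these numbers were 3, 4, 4 and 4.

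Mitosis genes are transcribed late in the cell cycle, so their summed level in a tissue follows the number of dividing cells. In resting cells the DREAM complex represses them through the cell cycle genes homology region (CHR) of their promoters, and in dividing cells B-Myb and FoxM1 activate them. In the mammary gland, divisions are few in the resting virgin epithelium and rise with progesterone, which acts in part through Rankl, and in pregnancy. In bulk samples, fewer dividing cells and less RNA per dividing cell cannot be told apart.

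Values are 3′ tag counts normalised by size factors. The libraries held 340445 to 3130419 whole reads (median 1853588), so that 1 read was worth 0.381 to 5.43 normalised counts, and 3 reads are taken as the limit that a count of 0 allows. The sorted lineages carried their markers: Krt5 ranged from 2.46 to 17.7 in luminal and from 811 to 1463 in basal libraries, and Krt8 from 994 to 3134 in luminal and from 201 to 664 in basal libraries. Tnfrsf11a, which encodes Rank, overlapped between genotypes in luminal cells (9.57 to 18.6 in virgin K8imTmG, 11.5 to 23.8 in virgin K8iΔRank, 12.8 to 64.9 in parous K8imTmG and 27.02 to 41.1 in parous K8iΔRank), and a 3′ tag outside a deleted exon does not check a deletion. The libraries fell into 2 sets that the labels do not name. In 14 of them the lectin gene Clec2d lay between 65.6 and 199, and in the other 16 it was at most 8.68. All luminal virgin K8imTmG, luminal parous K8iΔRank and basal virgin K8iΔRank libraries were Clec2d-low. All luminal virgin K8iΔRank and basal K8imTmG libraries were Clec2d-high, and the luminal parous K8imTmG (3 low, 2 high) and basal parous K8iΔRank groups (2 low, 2 high) were mixed. Where the sets and the groups coincide, they cannot be told apart.

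Mki67 encodes Ki-67, which coats mitotic chromosomes and is the usual stain for proliferating cells. In luminal cells it stood at 6.41, 62.9 and 25.02 normalised counts in the virgin K8imTmG mice 531, 533 and 538. In parous K8imTmG luminal cells it stood at 433 in mouse 532, 407 in mouse 534, 43.3 in mouse 558, 8.40 in mouse 494 and 9.59 in mouse 557. The parous controls thus held both the highest values of the series and values inside the virgin range. Virgin K8iΔRank luminal cells gave 32.8, 48.1 and 3.96 in mice 821, 822 and 825, and parous K8iΔRank luminal cells gave 51.0, 4.42, 45.2 and 264 in mice 787, 794, 798 and 830. In basal cells Mki67 was 1.44, 0 and 0 in virgin K8imTmG mice 531, 538 and 568, against 0, 124, 100.2 and 48.3 in virgin K8iΔRank mice 820, 821, 822 and 825. No basal virgin control exceeded 1 read of Mki67, whereas 3 of the 4 basal virgin K8iΔRank libraries were well above that. Parous basal cells gave 27.2, 61.5, 0 and 3.41 in K8imTmG mice 532, 534, 557 and 558, and 36.9, 0.797, 6.60 and 71.4 in K8iΔRank mice 787, 794, 798 and 830. These parous basal groups overlapped over nearly their whole range.

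Top2a and Cenpf act on chromosomes, Top2a by untangling DNA and Cenpf at the kinetochore, where spindle fibres attach. Top2a was the most abundant member, from 4.62 to 803 normalised counts with a median of 98.4, and was above 0 in every library. Cenpf ranged from 3.46 to 288 with a median of 44.0 and was also above 0 in every library. In luminal cells Top2a stood at 19.2, 116 and 81.7 in virgin K8imTmG mice 531, 533 and 538 and at 30.2, 700.2, 803, 89.5 and 126 in parous K8imTmG mice 494, 532, 534, 557 and 558. It stood at 167, 160 and 14.5 in luminal cells of virgin K8iΔRank mice 821, 822 and 825 and at 138, 25.1, 122 and 443 in those of parous K8iΔRank mice 787, 794, 798 and 830. Mouse 825 was the lowest of the virgin and mouse 794 of the parous K8iΔRank mice, as for Mki67. In basal cells Top2a was 12.9, 49.6 and 5.43 in virgin K8imTmG mice 531, 538 and 568 and 4.62, 246, 175 and 107 in virgin K8iΔRank mice 820, 821, 822 and 825. In parous basal cells it was 153, 329, 7.96 and 14.8 in K8imTmG mice 532, 534, 557 and 558 and 61.8, 6.38, 15.0 and 182 in K8iΔRank mice 787, 794, 798 and 830. No pair of genotypes separated at either stage. Both Top2a and Cenpf were highest in luminal cells of parous K8imTmG mouse 534. Levels of different genes are not compared per length, because a 3′ tag count does not grow with transcript length.

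Cdk1 is the kinase that starts mitosis, and Ccnb1 and Ccnb2 are its B-type cyclin partners. Cdk1 stood at 5.13, 18.4 and 0.736 in the luminal virgin K8imTmG mice 531, 533 and 538. It stood at 13.4, 114, 115, 63.9 and 30.7 in the luminal parous K8imTmG mice 494, 532, 534, 557 and 558. Only the lowest parous value, from mouse 494, fell inside the virgin range. In virgin K8iΔRank luminal cells Cdk1 was 64.4, 21.2 and 5.28 (mice 821, 822 and 825), and in parous K8iΔRank luminal cells it was 20.6, 0.983, 26.2 and 26.3 (mice 787, 794, 798 and 830). Both K8iΔRank groups overlapped the virgin controls. In virgin basal cells Cdk1 was 7.18, 16.5 and 5.43 in K8imTmG mice 531, 538 and 568 and 0, 78.8, 47.4 and 3.22 in K8iΔRank mice 820, 821, 822 and 825. In parous basal cells it was 62.8, 144, 0 and 2.28 in K8imTmG mice 532, 534, 557 and 558 and 5.58, 2.39, 2.64 and 71.9 in K8iΔRank mice 787, 794, 798 and 830. The value of 144, in mouse 534, was its highest of all. Ccnb1 ranged from 0 to 79.2 with a median of 12.4, and Ccnb2 from 0 to 44.0 with a median of 7.10. Ccnb2 rested on the fewest reads, 572 over all 30 libraries, against 7549 for Top2a.

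Birc5 encodes survivin, a subunit of the chromosomal passenger complex, and Tpx2 activates Aurora A on the spindle. Birc5 was found in every library, from 6.41 to 228 with a median of 35.6. Tpx2 ranged from 0 to 116 with a median of 9.34, and 11 libraries had at most 3 reads of it. Both were highest in luminal cells of parous K8imTmG mice, Birc5 in mouse 532 and Tpx2 in mouse 534.

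Cdc20 activates the anaphase-promoting complex, and Ube2c is the ubiquitin-conjugating enzyme that works with it to trigger the separation of chromosomes. Cdc20 ranged from 0 to 86.9 with a median of 10.8 and was highest in luminal parous K8imTmG mouse 534. Ube2c stood at 1.92, 15.7 and 5.89 in luminal virgin K8imTmG mice 531, 533 and 538. It stood at 26.9, 79.2, 81.6, 83.1 and 17.7 in luminal parous K8imTmG mice 494, 532, 534, 557 and 558. Here the groups did not overlap, and mice 494 and 557, which were low for Mki67, were not low for Ube2c. In luminal K8iΔRank cells Ube2c was 59.3, 15.4 and 10.6 in virgin mice 821, 822 and 825 and 17.5, 2.95, 12.8 and 38.7 in parous mice 787, 794, 798 and 830. In virgin basal cells Ube2c was 18.7, 28.9 and 0 in K8imTmG mice 531, 538 and 568 and 1.15, 31.6, 23.7 and 7.52 in K8iΔRank mice 820, 821, 822 and 825. Parous luminal K8iΔRank values lay below 3 of the 5 parous control values in every library and overlapped the remainder, and the virgin basal genotypes overlapped as well.

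Summed over the 10 genes, the luminal parous K8imTmG group spanned 203 to 2198 normalised counts with a median of 412. The luminal virgin K8iΔRank group had the highest median of the 8 groups, 496, within a range of 107 to 637. The basal virgin K8iΔRank group spanned 25.4 to 825 (median 444), luminal parous K8iΔRank 54.5 to 1396 (median 369) and basal parous K8imTmG 47.8 to 893 (median 268). Luminal virgin K8imTmG spanned 62.8 to 359 (median 186), basal parous K8iΔRank 41.4 to 680.2 (median 120.2) and basal virgin K8imTmG 38.0 to 203 (median 76.1). Of the 28 pairs of groups, 27 overlapped, and the exception was luminal parous K8imTmG above basal virgin K8imTmG. Neighbours in the order of medians therefore did not separate. Within a group the highest library exceeded the lowest by 5.32-fold to 32.5-fold. The 2 highest libraries, luminal cells of parous K8imTmG mice 532 and 534, held 31.2% of all normalised counts of these genes in the series, and the 5 highest held 53.7%.

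The level in luminal cells of a mouse was compared with that in basal cells of the same mouse, by the mouse numbers in the labels, in 13 mice, after subtracting the mean of each group from log2(normalised count + 1). Pearson's r was 0.88 for Mki67 (Spearman's rho 0.84), 0.86 for Top2a, 0.94 for Ccnb2, 0.87 for Cenpf, 0.82 for Birc5, Tpx2 and Ube2c, 0.80 for Cdc20, 0.68 for Ccnb1 and 0.54 for Cdk1. Among these mice, those with high mitosis transcripts in one lineage thus tended to have high ones in the other. An exact permutation test that reassigned basal libraries among mice of the same stage and genotype, with 6912 arrangements, gave an unadjusted p of 0.00304 for Mki67 and 0.0001447 for Top2a, the smallest the arrangements can give. The unadjusted p was below 0.05 for 9 of the 10 genes, the exception being Cdk1 (exact p = 0.071), against 6.65% of 11128 genes. The 10 genes move together from library to library, so these are not separate tests. After Benjamini-Hochberg adjustment over those genes the 10 members had adjusted exact p-values of 0.201 to 0.787, so none was called, and no gene of the table was (0%). With 6912 arrangements, a gene at the smallest p could be called only if many other genes reached that p too. The lack of calls therefore decides nothing. The median r over all genes was 0.05, and rho of the 10 members ranged from 0.57 to 0.96. Without the 2 mice farthest from the median luminal level, r ranged from 0.45 to 0.91 over the members. In the 10 mice whose luminal and basal libraries were in opposite Clec2d sets, r ranged from 0.75 to 0.92. That libraries with 1 mouse number fall in opposite sets is not explained by the labels, and neither the pairing nor the group labels could be checked apart from them. The 2 libraries of a mouse share the animal and whatever state it was in, which the labels do not record beyond stage and genotype.

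The 2 lineages of a mouse differed in which was higher. The luminal sum of the 10 genes was above the basal sum in 8 of 13 mice, and these were all 8 of the parous mice. In mouse 532 it was 2127 in luminal and 464.7 in basal cells, and in mouse 557 it was 412 and 47.8. In the virgin K8iΔRank mice 821, 822 and 825 the basal sum was the higher, at 825, 623 and 265 against 637, 496 and 107. The virgin K8imTmG mice 531 and 538 had nearly equal sums, 62.8 and 76.1 in mouse 531 and 186 and 203 in mouse 538. Mice 821, 822 and 825 were the only mice with a Clec2d-high luminal and a Clec2d-low basal library. In mice 531 and 538 the luminal library was Clec2d-low and the basal one Clec2d-high. Within each genotype, lineage and Clec2d set therefore cannot be told apart in these virgin mice.

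The 10 genes also moved together from library to library. Over the 45 pairs of members and 30 libraries, with group means subtracted, r ranged from 0.50 to 0.95 with a median of 0.83. Against the mean of the other 9, Top2a had the highest r (0.96) and Ube2c the lowest (0.80). Among the other genes of the table, those most like the mean of the 10 included Kif23 (r = 0.97) and Prc1 (0.95), which build the central spindle, the kinase gene Pbk (0.95), cyclin A2 gene Ccna2 (0.95), Cdca3 (0.95), the spindle gene Tacc3 (0.94) and thymidine kinase gene Tk1 (0.94). The median r over all genes was 0.02. These values describe 30 libraries that share mice and depth, and carry no p.

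Because the genes moved together, their promoters were searched for the letters of the CHR, TTTGAA or TTCGAA on either strand. RefSeq promoters of 300 bases (250 before and 50 after the start, GRCm38.p6) were on hand for 9 of the 10 genes, with none for Tpx2. The CHR letters were in 7 of 9, all but Ccnb1 and Birc5, against 19.2% of 32851 promoters of the same length. CCAAT, on either strand, was in 8 of 9, all but Birc5, against 37.4%, and both motifs were in 7 of 9, against 7.52%. The short motif GGCGG was in 9 of 9, against 48.8%. A match describes letters and is not a binding site. The CHR match nearest the start is printed in capitals in 30 bases around it for each of the 7 genes, 5′ to 3′ in the gene's direction, to show the shared letters. TTCAAA is TTTGAA read on the other strand, so Top2a and Ube2c hold the match on the opposite strand.
Mki67: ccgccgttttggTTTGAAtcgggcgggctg
Top2a: gctagataaaggTTCAAAtgaaactaggga
Cdk1: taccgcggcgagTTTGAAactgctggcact
Ccnb2: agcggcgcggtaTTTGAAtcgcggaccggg
Cdc20: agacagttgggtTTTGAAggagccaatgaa
Cenpf: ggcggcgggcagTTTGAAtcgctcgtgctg
Ube2c: ggagggttgcaaTTCAAAcgcgggcggcgg

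Found by exact match in GRCm39, these windows lay at chr7:135318189-135318218 (Mki67), chr11:98915021-98915050 (Top2a), chr10:69188740-69188769 (Cdk1), chr9:70328815-70328844 (Ccnb2), chr4:118294541-118294570 (Cdc20) and chr1:189420264-189420293 (Cenpf), all on the minus strand, and at chr2:164611808-164611837 on the plus strand (Ube2c). Counted from the start used in the RefSeq promoter table, the motif sat 98 bases before it for Mki67 and 15 to 29 bases before it for Top2a, Cdk1, Cdc20 and Ube2c. For Ccnb2 and Cenpf it began 5 and 3 bases after that start. The GENCODE vM39 gene spans in GRCm39 begin further upstream, so all 7 windows lie inside them.

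In luminal cells of control mice, parous and virgin animals were compared first. All 10 genes had higher means after parity, by a median of 1.90 on the log2(normalised count + 1) scale, against a median of -0.01 over all genes, 49.6% of which were above 0. None of the 10 was called by limma at an adjusted p below 0.05, in a comparison that called 2.20% of the genes tested. At an unadjusted p below 0.05 there were 5 of 10 (Cdk1, Ccnb1, Birc5, Cenpf and Ube2c), against 21.7% of all genes. Of these, Cdk1, Ccnb1 and Ube2c passed the filter on low values only through the parous group, where they are high. The count of 5 therefore supports nothing. DESeq2 on the recovered reads, after the same filter, called 5 of the 10, with Cdk1, Ccnb1 and Ube2c among them, and edgeR called none. The DESeq2 count has the same limit. Ube2c was 2.83 higher (SE 0.66, adjusted p = 0.0597), Cdk1 3.15 (SE 0.85, adjusted p = 0.0824) and Ccnb1 2.23 (SE 0.69, adjusted p = 0.113). Mki67 was 1.38 higher with an SE of 1.35 (adjusted p = 0.579), a difference within its spread. Only the groups of Ube2c did not overlap, 1 of 10 members against 7.08% of all genes with the parous group higher. Ube2c entered this count through the parous group alone, as said.

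The parous control libraries of mice 494 and 557 were Clec2d-high and all others in this comparison Clec2d-low. They were also the shallowest, at 943438 and 534445 reads against 1862812 to 2988541. Of the luminal markers 7 of 8 were lower after parity (median -0.64, Krt19 called), with sums of 4555 to 6739 against 7505 to 10660. The part of depth or of the make-up of the cells in the differences was not tested. Among the Clec2d-low libraries alone, 3 parous against 3 virgin, 6 of the 10 genes were called and rose, in a comparison that called 12.8% of genes. Of these, Cdk1, Ccnb1, Cdc20, Tpx2 and Ube2c passed the filter on low values only through the parous group, where they are high. The count of 6 therefore supports nothing. Cdk1 rose by 3.67 (SE 0.86, adjusted p = 0.0326), Tpx2 by 2.78 (SE 0.67, adjusted p = 0.0351), and Ube2c (2.84), Cdc20 (2.48), Birc5 (2.69) and Ccnb1 (2.72) had adjusted p-values of 0.0444 to 0.0499. The other 4 differed by 2.13 to 3.10, with adjusted p-values of 0.0514 to 0.0766. The groups did not overlap for 7 of 10, against 18.3% of all genes higher, a count that is limited by the same filter. These parous libraries came from mice 532, 534 and 558, and mouse 558, with Mki67 at 43.3, lay within the virgin range of 6.41 to 62.9 for that gene.

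Parous luminal cells of K8iΔRank and K8imTmG mice were compared next, to ask how loss of luminal Rank changes the gland after pregnancy. The 2 groups also differ in nursing history, which cannot be told apart from genotype here. All 10 genes had lower means in K8iΔRank, by a median of 0.88 on the log2 scale, while the median over all genes was 0.04 and 46.6% of all genes were below 0. None was called by limma, DESeq2 or edgeR, in a comparison where limma called 0.0991% of genes. An unadjusted p below 0.05 was reached by 2 of 10, Cdk1 and Ube2c, against 19.9% of all genes. Cdk1 differed by -1.97 (SE 0.85, adjusted p = 0.234), Ube2c by -1.80 (SE 0.67, adjusted p = 0.181) and Mki67 by -0.48 (SE 1.38, adjusted p = 0.872). For Mki67 the SE was larger than the difference. K8iΔRank mice 787, 798 and 830, at 51.0, 45.2 and 264, stood above 3 of the 5 controls, mice 494 and 557, both Clec2d-high, and mouse 558. Within the Clec2d-low set, 4 against 3 libraries, all 10 differences were again below 0, with a median of -1.84, and none was called (adjusted p = 0.125 to 0.342, with 0.416% of genes called). Cdk1 alone did not overlap there, from 0.983 to 26.3 in K8iΔRank and 30.7 to 115 in controls, against 10.3% of all genes with K8iΔRank lower.

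Virgin luminal cells showed the other direction. Of the 10 genes 9 had higher means in K8iΔRank, with a median of 1.28, against -0.03 over all genes, 48.3% of which were above 0. None was called by limma, DESeq2 or edgeR (0.984% of genes called by limma), and 4 of 10 had an unadjusted p below 0.05 (Ccnb1, Cdc20, Cenpf and Ube2c) against 22.1%. Of these, Ccnb1, Cdc20 and Ube2c passed the filter on low values only through the K8iΔRank group, where they are high. The count of 4 therefore supports nothing. Ccnb1 differed by 1.70 (SE 0.66, adjusted p = 0.171), Cenpf by 1.50 (SE 0.60, adjusted p = 0.185), Cdc20 by 1.39 (SE 0.60, adjusted p = 0.212) and Ube2c by 1.70 (SE 0.75, adjusted p = 0.222). Mki67, at -0.19 (SE 0.91, adjusted p = 0.923), was the 1 member below 0. All K8iΔRank libraries here were Clec2d-high and all controls Clec2d-low, so genotype and Clec2d set cannot be told apart. The K8iΔRank libraries were also shallower, at 814455 to 1158036 reads against 1862812 to 2422876. Of the marker lists, 5 of 5 basal genes tested (median 1.16) and 5 of 5 fibroblast genes tested (median 0.99) were above 0 and 7 of 8 luminal genes below 0 (median -0.55), none of them called. The summed basal markers were 99.99 to 316 in K8iΔRank and 78.8 to 94.9 in control libraries, the fibroblast markers 754 to 1345 and 306 to 999, and the luminal markers 6295 to 7328 and 7505 to 10660. The part of depth or of other cells in the difference was not tested.

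In K8iΔRank luminal cells, parous and virgin groups also lay in opposite Clec2d sets. Of the 10 genes 4 had higher and 6 lower means after parity, with a median of -0.38. None was called by limma, DESeq2 or edgeR, in a comparison where limma called 16.0% of genes, and none had an unadjusted p below 0.05, against 33.0% of all genes.

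Whether the genotype effect in luminal cells differed between stages was tested as an interaction, in which the parous effect includes nursing history. The effect was lower in parous than in virgin mice for all 10 genes, with a median of -2.15. Ube2c was called, at -3.50 (SE 1.11, adjusted p = 0.0488), which is 1 of 10 in a test that called 12.9% of genes. Cdk1 (-3.80, adjusted p = 0.0863) and Ccnb1 (-3.08, adjusted p = 0.108) had unadjusted p-values below 0.05 and were not called, so 3 of 10 reached that level against 32.7% of all genes, and Mki67 stood at -0.28 (adjusted p = 0.936). The call of Ube2c was lost with the Clec2d set as a term (-3.56, adjusted p = 0.282), and over all its alternatives other than leaving out 1 library its adjusted p ranged from 0.0127 to 0.282. Leaving out 1 library at a time kept the call of Ube2c in 5 of 15 fits. For Mki67 the alternatives other than leaving out 1 library gave -6.33 to -0.28, with adjusted p-values of 0.182 to 0.946.

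**Figure D1:**
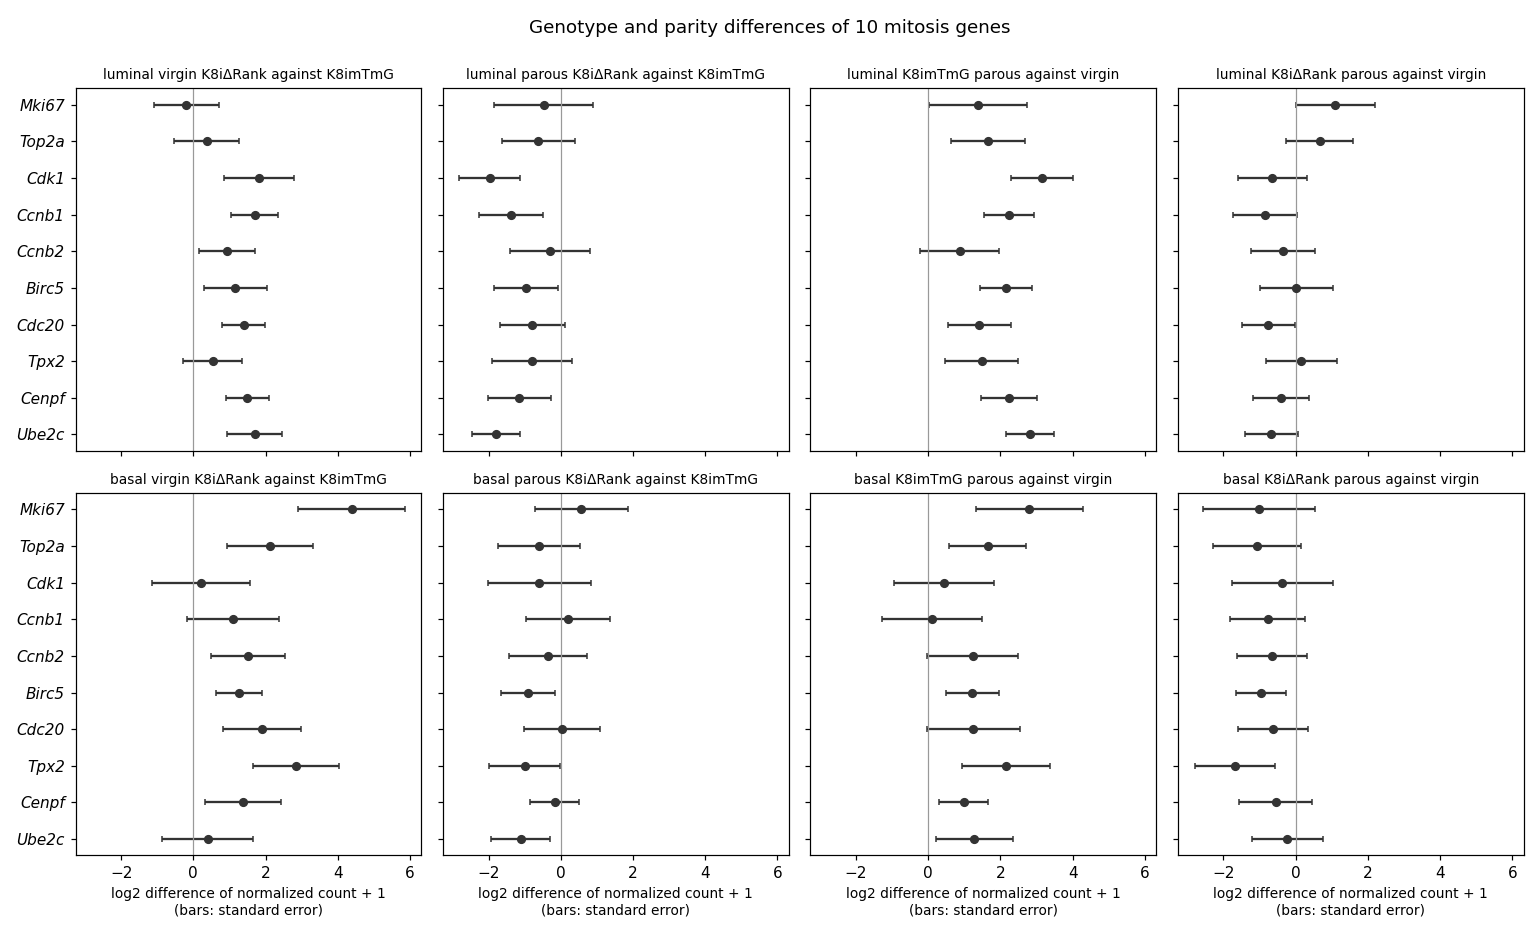
Differences of the 10 genes on the log2(normalised count + 1) scale in each comparison, with 1 point a gene and bars of 1 SE. In luminal cells the controls sit above 0 for parous against virgin, with a median of 1.90, and the parous K8iΔRank against K8imTmG differences sit below 0, with a median of -0.88, most bars being wide against the differences.

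Basal cells keep Rank in both genotypes by design, and differences there ask how they fare beside Rank-deleted luminal cells. In virgin mice all 10 genes had higher means in K8iΔRank, with a median of 1.44. None was called by limma, against 8.99% of genes, while DESeq2 called 1 and edgeR none. An unadjusted p below 0.05 was reached by Mki67 and Tpx2, 2 of 10 against 29.3%, and both passed the filter on low values only through the K8iΔRank group, where they are high, so that this count supports nothing. Mki67 differed by 4.39 (SE 1.49, adjusted p = 0.0876) and Tpx2 by 2.84 (SE 1.19, adjusted p = 0.146), and these fitted differences depend on the added count of 1, because the controls held 1, 0 and 0 reads of Mki67. Set and genotype again coincided. The summed endothelial markers were 279 to 1220 in the K8iΔRank and 217 to 547 in the control libraries, of 6 endothelial genes in the table, and the library with 1220, mouse 820, had the lowest sum of the mitosis genes, 25.4. The controls were also shallower, at 340445 to 1172427 reads against 1200781 to 2104379. The part of either in the difference was not tested.

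In parous basal cells 3 of the 10 genes had higher and 7 lower means in K8iΔRank, with a median of -0.47. None was called by limma, DESeq2 or edgeR (0.906% of genes by limma), and none had an unadjusted p below 0.05, against 22.6%. Among Clec2d-high libraries alone, 2 against 4, none of the 10 was called and no gene of the table was (0%), and the median was 0.15. In all 4 against 4 libraries the 8 luminal markers were above 0 in K8iΔRank (median 1.33, Cldn4 called), with sums of 865 to 1023 against 534 to 754, and their part in the difference was not tested.

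Parity was also compared in basal cells. In K8imTmG basal cells, all of them Clec2d-high, the 10 genes had higher means in parous mice, with a median of 1.24. No member and no gene of the table was called by limma (0%), no member was called by DESeq2 or edgeR, and none of the 10 had an unadjusted p below 0.05, against 9.20% of all genes. In K8iΔRank basal cells all 10 had lower means in parous mice, with a median of -0.71. Here too no gene was called by limma (0%), no member by DESeq2 or edgeR, and none of the 10 reached an unadjusted p below 0.05, against 9.84%. Markers of other cell types lay lower in these parous basal libraries as well: 6 of 6 endothelial genes (median -1.77, all 6 at an unadjusted p below 0.05, none called) and 6 of 7 fibroblast genes (median -0.85) were below 0, and the endothelial sum was 109 to 195 in parous and 279 to 1220 in virgin libraries. In K8imTmG basal cells, where the mitosis genes had higher parous means, the same markers were lower too, 6 of 6 endothelial genes (median -1.71) and 6 of 7 fibroblast genes (-0.81), with sums of 87.6 to 172 in parous and 217 to 547 in virgin libraries. The part of those cells in either difference was not tested. The interaction of genotype and stage in basal cells was below 0 for all 10, with a median of -1.88. No gene was called by limma (0%) and no member by DESeq2 or edgeR, and Tpx2 alone had an unadjusted p below 0.05 (-3.84, SE 1.61, adjusted p = 0.449), 1 of 10 against 10.2%. The spread among parous basal mice was wide: in K8imTmG mice the sum of the 10 genes was 893 in mouse 534 and 47.8 in mouse 557.

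Luminal cells were compared with basal cells within each stage and genotype and over all groups. Over all groups the luminal mean was higher for all 10 genes, with a median of 0.97. Mki67 was called (1.98 higher, SE 0.80, adjusted p = 0.0365) and so was Tpx2 (1.46 higher, SE 0.59, adjusted p = 0.0380), 2 of 10 in a comparison that called 55.7% of genes, and 4 of 10 had an unadjusted p below 0.05, against 59.8% of all genes. With the Clec2d set as a term Mki67 was 1.26 higher (adjusted p = 0.225) and Tpx2 1.01 higher (adjusted p = 0.200), and neither was called. With the mouse as a block both were still called, at 1.96 and 1.46. Mki67, Tpx2 and Cdc20 passed the filter on low values only with the luminal libraries counted, where they are high. The counts of 2 and 4 therefore support nothing beyond the values themselves.

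In virgin K8imTmG mice 7 of the 10 genes passed the filter on low values, and 1, Mki67, was called, in a comparison that called 36.2% of genes. It was 4.10 higher in luminal cells (SE 0.86, adjusted p = 0.00588), and it was also the 1 of 7 with an unadjusted p below 0.05, against 46.5% of all genes. It passed the filter only through 2 luminal libraries (mice 533 and 538) and could not be tested without either of them, so the call is no support for a difference beyond the values themselves. Of the other 6 tested, Top2a differed by 1.81 (SE 0.83, adjusted p = 0.117) and the remainder by -0.72 to 0.64, with Cdk1, Ccnb1 and Ube2c below 0. In reads, luminal libraries held 164 of 6421206 and basal libraries 1 of 1950745, a ratio of 49.8 per total read with an exact 95% interval of 8.82 to 1980 that covers counting error only. Mouse 533 gave 120 of the 164 luminal reads, and without it the ratio was 21.5 (3.66 to 867). For Tpx2 the ratio was 15.2 (2.60 to 612) and without mouse 533, which gave 33 of 50 reads, 8.29 (1.30 to 347). Not all genes leaned to luminal cells: the ratio was 0.608 for Ccnb1 (0.330 to 1.16) and 0.623 for Ube2c (0.357 to 1.12), and without mouse 533 it was 0.287 (0.117 to 0.664) and 0.268 (0.116 to 0.588). Luminal libraries were all Clec2d-low and basal ones all Clec2d-high, so lineage and set cannot be told apart in these mice. In virgin K8iΔRank mice 9 of 10 genes had higher luminal means (median 0.35), none was called by limma, DESeq2 or edgeR (35.9% of genes by limma), and none had an unadjusted p below 0.05, against 46.2% of all genes.

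In parous K8imTmG mice all 10 genes had higher luminal means, with a median of 1.74. None was called by limma, against 30.7% of genes, while DESeq2 called 2 and edgeR 1, and 1 of 10 had an unadjusted p below 0.05, against 40.9%. That gene was Cenpf, 1.90 higher (SE 0.69, adjusted p = 0.0573), which was called with the mouse as a block (1.96, SE 0.57, adjusted p = 0.0186). Among the Clec2d-high libraries alone, 2 luminal against 4 basal, Cenpf was 1.02 higher (adjusted p = 0.319). In parous K8iΔRank mice all 10 were again higher in luminal means (median 0.83), with none called by limma, DESeq2 or edgeR (37.0% of genes by limma) and none at an unadjusted p below 0.05, against 45.9%. The lineage difference did not change detectably with stage in K8imTmG mice (none of 10 called by limma, DESeq2 or edgeR, 0.127% of genes by limma) or with genotype in parous mice (none of 10 by the same tools, 0%), and no member had an unadjusted p below 0.05 in either, against 11.7% and 6.47% of all genes.

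The make-up of the mitosis signal was described in the 21 libraries with at least 100 reads over the 10 genes, 14 Clec2d-low and 7 Clec2d-high. Mki67 made up 8.11% to 20.4% of the reads of the 10 genes in Clec2d-low libraries (median 15.6%) and 2.33% to 10.5% in Clec2d-high libraries (median 5.86%). Cdk1 went the other way, with medians of 5.11% and 10.6%, as did Ube2c, with medians of 3.82% and 7.30%. The ratio of Mki67 to Cdk1 reads was 1.41 to 34.0 in Clec2d-low libraries (median 3.48) and 0.150 to 2.27 in Clec2d-high libraries (median 0.510). The proportions of these genes thus differed between the sets, with overlap between them, and the contrast was noticed after the values were seen and carries no test. It lies beside every comparison in which the groups come from different sets, among them the Mki67 and Cdk1 differences of the virgin luminal genotypes.

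Other genes of the same processes were counted in 7 lists. The table held 17 of 19 kinetochore genes, 16 of 21 of the spindle checkpoint and anaphase-promoting complex, 15 of 20 mitotic kinases and Cdk1 regulators, 20 of 27 spindle and cytokinesis genes, 12 of 14 condensin and chromatin genes, 15 of 19 of DREAM and FoxM1 control and 22 of 25 replication genes. After parity in luminal controls, 22 of 22 replication genes, 18 of 20 spindle genes, 16 of 17 kinetochore genes and 13 of 15 mitotic kinases had higher means, with medians of 1.43, 1.68, 1.70 and 1.64. The checkpoint list did not share this, with 7 of 16 higher and a median of -0.02. Of the 117 genes of the 7 lists tested, 2 were called (1.71%), no more than the 2.20% of all genes, and both rose: Rb1, a pocket protein that restrains entry into S phase (1.77, SE 0.31, adjusted p = 0.0285), and Gins2, a subunit of the replicative helicase (1.84, SE 0.39, adjusted p = 0.0436).

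In parous luminal cells of K8iΔRank against K8imTmG mice no gene of the 7 lists was called by limma, against 0.0991% of all genes. Lower means were seen for 21 of 22 replication genes (median -0.86), 16 of 20 spindle genes (-0.75), 14 of 17 kinetochore genes (-0.75), 13 of 15 mitotic kinases (-0.70) and 9 of 16 checkpoint genes (-0.13). In virgin luminal cells the kinetochore list had 10 of 13 tested genes above 0 (median 0.84) and the spindle list 9 of 14 (median 0.34), and the only call among 97 genes tested in the 7 lists (1.03%, against 0.984% of all genes) was the condensin II subunit gene Ncaph2, which was lower in K8iΔRank (-1.51, SE 0.28, adjusted p = 0.0424).

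In virgin basal cells, 11 of 111 genes of the 7 lists were called (9.91%), close to the 8.99% of all genes, 7 of them higher and 4 lower in K8iΔRank. The spindle list had 19 of 20 genes above 0 (median 1.79) and none called. The kinetochore list had 13 of 17 above 0 (median 1.25), and in it Cenpe, a kinetochore motor (3.73), and Pmf1 (1.74) rose while Zwint (-1.65) fell. Incenp, the scaffold of the chromosomal passenger complex, rose (1.44). In the chromatin list Ctcf (1.09) and Cbx5 (0.82) rose and the histone gene H2az1 fell (-1.33), and in the DREAM list Rbbp4 fell (-0.91). The helicase genes Mcm5 (1.99) and Mcm3 (2.14) rose, and Slbp, which binds histone transcripts, fell (-1.83). In the luminal interaction of genotype and stage, 11 of 116 list genes were called (9.48%, against 12.9% of all genes), and 20 of 22 replication and 18 of 20 spindle genes were below 0, with medians of -1.08 and -0.88. Over all groups, luminal against basal cells, 5 of 17 kinetochore genes were called higher and none lower, a smaller share than the 55.7% of all genes called, while the replication list had 2 higher and 4 lower calls. The groups of each comparison lie in the Clec2d sets given above.

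**Figure D2:**
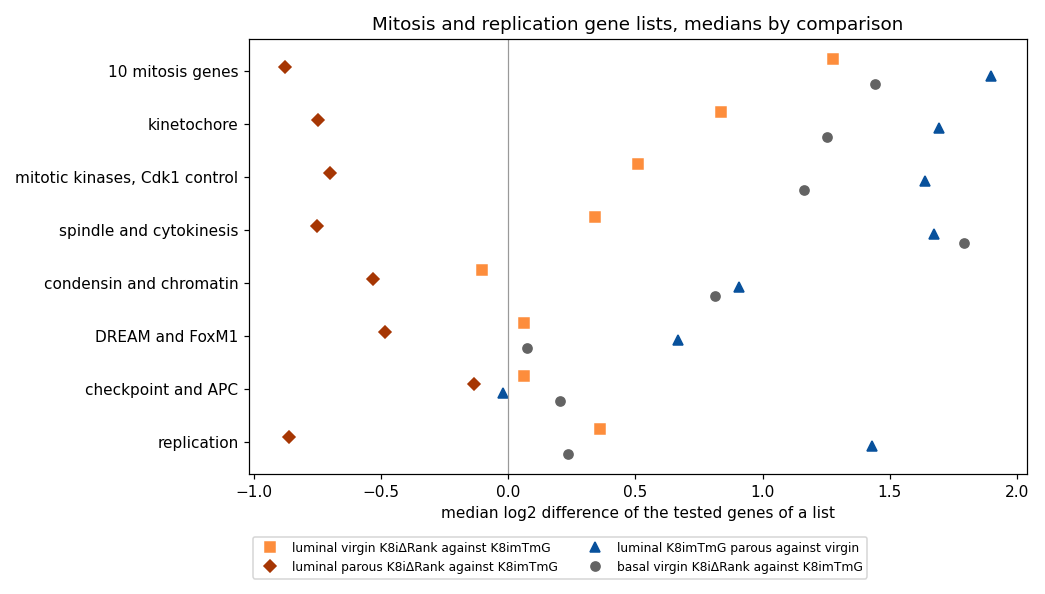
Median difference on the log2(normalised count + 1) scale of the 10 genes and of the 7 lists of related genes in each comparison. For parous against virgin luminal controls the kinetochore, kinase and spindle medians are 1.70, 1.64 and 1.68 beside 1.90 for the 10 genes, and the checkpoint median is -0.02.

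The genes lie on 8 chromosomes of GRCm39 (GENCODE vM39). Top2a (98883769 to 98915062, minus strand) and Birc5 (117740040 to 117746581, plus strand) are both on chromosome 11, far apart. Tpx2 (152689854 to 152737245) and Ube2c (164611768 to 164620742) are both on the plus strand of chromosome 2, and Mki67 is on chromosome 7 (135291513 to 135318299, minus strand). Cdk1 is on chromosome 10 (69170976 to 69236595), Ccnb1 on chromosome 13 (100915153 to 100923116), Ccnb2 on chromosome 9 (70314966 to 70328874), Cdc20 on chromosome 4 (118290098 to 118294610) and Cenpf on chromosome 1 (189372752 to 189420315), all on the minus strand.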

How the data were processed

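The 30 libraries were made by QuantSeq 3′ mRNA sequencing (FWD, with molecular identifiers) from cells sorted by flow cytometry. Per the labels and the study's methods, the authors trimmed and aligned reads to GRCm39 with Bowtie2, removed duplicates with UMI-tools, counted genes, filtered low ones and deposited counts normalised by DESeq2 size factors, a signal that is not whole. Replicate reads were not pooled. All values (tolerance 0.01 reads) were whole multiples of what 1 read is worth, so reads were recovered. The count test on them, which called 0 to 5 members a comparison by DESeq2 and 0 or 1 by edgeR, is an alternative.

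The main test was limma 3.58.1 (trend) on log2(normalised count + 1), with genes above 10 in at least 25% of the libraries compared, Benjamini-Hochberg adjustment over all genes tested and a threshold of 0.05. Alternatives changed the pseudocount (0.5, 4), the filter, array weights, the tool (edgeR 4.0.16, DESeq2 1.42.0), the samples fitted and the Clec2d set (split at 30). A read ratio without mouse 533 and outlier gaps on the log2 scale were added after the data were seen. Per the labels, replicate numbers are mouse numbers, so luminal and basal libraries with the same number were taken as 1 animal, although 10 of 13 such pairs lie in opposite Clec2d sets. Over the members their deviations from group means correlated at 0.54 to 0.94, and a fit with the mouse as a block was run. Whether replicates were run in separate batches is not given in the sources used here. The study's methods give a wide range of RNA integrity, and no value per library was on hand. Scripts were tested on simulated data. The named genes were the 10 members, up to 3 called genes of each list in a comparison (the first 2 where none was called, here given by counts) and the 8 genes most like the members, of which 1 is not reported here. Members, lists and comparisons were chosen with earlier results of these data known. Promoters came from RefSeq (GRCm38.p6) and gene positions from GENCODE vM39. R 4.3.3 and Python 3.11.15 were used.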

Additional observations from a re-analysis of the deposited data

Results flagged for a closer look

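In 6 of 50 tests of a group of 4 or 5 libraries and 1 gene, on normalised counts, a library stood far from the others. Chance gives about 1 in 20 for normally distributed values, which these widely spread counts were not shown to be. The genes move together, so these are not separate tests: all 6 were mouse 830, parous K8iΔRank, and 5 of them 1 library. In its luminal cells Ccnb2 was 42.2 normalised counts, with the nearest other library at 7.99. In its basal cells Cdk1 was 71.9 (nearest 5.58), Ccnb1 61.6 (nearest 6.86), Ccnb2 32.1 (nearest 5.15), Cdc20 40.9 (nearest 6.01) and Ube2c 49.7 (nearest 6.86). On the log2(normalised count + 1) scale, chosen after seeing the data, 1 of the 50 tests passed the limit and none of these 6 did, with gaps of 0.549 to 0.784 of the range.

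The genotype effect of Ube2c was lower in parous than in virgin luminal cells, by -3.50 on the log2 scale (limma adjusted p = 0.0488), 1 of 10 members in a test that called 12.9% of all genes. The call was lost with the Clec2d set as a term (adjusted p = 0.282), with all 30 libraries in 1 fit (0.115), with no filter (0.0568) and with array weights (0.055), and was kept in 5 of 15 fits without 1 library.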

How the results depend on the processing

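Counts below are members called at an adjusted p below 0.05. With array quality weights they were 2 for the parous luminal genotypes (0 in the main test), 6 for parity in luminal controls (0), 4 for the virgin basal genotypes (0), 2 for lineage in virgin controls (1), 8 for lineage in parous controls (0), 1 for lineage over all groups (2) and 0 for the luminal interaction (1). DESeq2 gave 5 for parity in luminal controls, 1 for the virgin basal genotypes and 2 for lineage in parous controls. edgeR gave 1 for lineage in parous controls and 0 for lineage over all groups. The replicate block (the mouse) gave 1 for lineage in parous controls and changed no other call. The Clec2d-low libraries alone gave 6 for parity in luminal controls. In each of these counts for parity in luminal controls, some genes passed the filter on low values only through the parous group. For lineage over all groups Mki67 and Tpx2 passed it only with the luminal libraries counted, where they are high. With the Clec2d set as a term the counts were 0 for lineage over all groups and 0 for the luminal interaction. Fitting all 30 libraries together gave 0 for lineage in virgin controls and 0 for the luminal interaction, a pseudocount of 4 gave 0 for lineage over all groups, and no filter gave 0 for the luminal interaction.

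Leaving out 1 library at a time gave 0 to 2 for parity in luminal controls (2 without mouse 494), 0 to 2 for the virgin basal genotypes (2 without mouse 820), 0 to 2 for lineage in virgin controls (0 without luminal mouse 533 or 538, where Mki67 no longer passed the filter on low values), 0 to 1 in parous controls, 0 to 2 in parous K8iΔRank mice (2 without luminal mouse 794) and 0 to 5 over all groups (5 without luminal mouse 794 or basal mouse 830), and 0 to 1 for the luminal interaction. The smaller number of samples lowers the power of each such fit. Signs changed as follows. In virgin luminal genotypes array weights gave -0.41 for Top2a and -0.31 for Tpx2, and leaving out 1 library gave -0.39 to 1.50 for Top2a, -0.042 to 1.48 for Tpx2 and -1.01 to 0.82 for Mki67. In parous luminal genotypes leaving out 1 library gave -1.35 to 0.52 for Mki67, -1.26 to 0.11 for Top2a, -1.17 to 0.34 for Ccnb2 and -1.51 to 0.072 for Tpx2. For lineage over all groups DESeq2 gave -0.036 for Cdk1 and -0.075 for Ccnb1, and edgeR -0.052 and -0.085. For Mki67 in the luminal interaction leaving out 1 library gave -1.30 to 0.71. The cause of these changes was not tested.

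Over all genes, calls ranged with the alternative from 5 to 2514 for virgin luminal genotypes (99 in the main test), 10 to 1147 for parous luminal genotypes (10), 106 to 3993 for parity in luminal controls (226), 406 to 1683 for parity in luminal K8iΔRank cells (1643), 870 to 2155 for virgin basal genotypes (954), 0 to 2572 for parous basal genotypes (96), 0 to 56 for parity in basal controls (0), 0 to 214 in basal K8iΔRank cells (0), 5 to 2671 for the luminal interaction (1326), 0 to 11 for the basal interaction (0), 3 to 179 for lineage by stage (14) and 0 to 403 for lineage by genotype (0). Members at or under 3 reads in many libraries, such as Tpx2 in 11 and Mki67 in 9, are limited by depth.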
